A study of Mus musculus with 8 samples.

Results

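The genes described here encode cadherins and protocadherins, which are calcium-dependent adhesion molecules of the cell surface. They were taken by name: every gene with a probe set of a single symbol starting with Cdh and a digit, or with Pcdh. This gave 47 of the 12393 genes measured, 17 cadherins and 30 protocadherins, read by 59 probe sets. For the 10 genes with several probe sets, the brightest by its mean of 8 array values stands for the gene. Probe sets shared by several clustered protocadherin genes, 6 in number, were not members. All 47 matched a gene of RefSeq (GRCm38.p6).

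The arrays came from J1 cells, an established mouse embryonic stem cell line, in 4 groups of 2 arrays each. Day 4 was J1 on day 4 of differentiation, shRNA1 and shRNA2 were J1 with either of 2 hairpins knocking down Fbxl19, and shControl was J1 with a control hairpin. The protocol given for all samples is growth on gelatin in serum with leukemia inhibitory factor. The labels state neither how differentiation was carried out, nor whether day 4 cells carried a hairpin, nor how hairpins were delivered. They also do not say if replicates were separate cultures, and a p-value here reflects array-to-array spread that could be purely technical. No probe set was annotated to Fbxl19, an F-box protein with a CXXC domain that binds unmethylated CpG DNA, so the degree of knockdown was not analysed here. Titles and source names give Fbxl19 as the target on all 4 hairpin arrays, while the free-text descriptions of 3 of them name other members of the Fbxl family (Fbxl20, Fbxl21 and Fbxl22). An array reads the RNA of a whole culture, so that fewer cells of a type and less RNA per cell cannot be told apart.

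Classical cadherins bind a like molecule on the next cell through their outer repeats and hold catenins with their inner tail, which tie the junction to actin. E-cadherin (Cdh1) joins the cells of embryonic stem cell colonies and of epithelia, and N-cadherin (Cdh2) is known from mesoderm and neural tissue of the embryo. Protocadherins lack that catenin-binding tail. The beta genes (Pcdhb) stand in a row on chromosome 18 and are known for giving neurons their surface identity, while delta protocadherins stand alone in the genome and act in tissue movements and nerve wiring.

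Values are log2 expression per probe set. Probe sets differ in how well they bind, so their levels were not set against each other, and no measure of background was given. As a guide to where a probe set stands on its array, the lower quartile of all probe sets was 3.79 to 3.90 on the 8 arrays. Of the 47 members, 25 were below it on all 8 arrays and 10 above it on all 8, against 15.6% and 74.8% of all genes. The 10 were Cdh1, Cdh2, Cdh3, Cdh4, Cdh15, Cdh5, Cdh22, Cdh13, Pcdhb5 and Pcdhb8, so that all 5 type I classical cadherins were among them and 2 of 22 clustered protocadherins.

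The shControl arrays differed by an SD of 0.31 across genes, more than those of shRNA1 (0.20) or shRNA2 (0.22) and less than those of day 4 (0.41). Replicate 2 of shControl had the lowest lower quartile (3.79) and the highest median (5.81) of the 8 arrays, the other medians being 5.70 to 5.76. Between actin probe sets at the 3' and 5' ends of the message, a sign of RNA quality, the log2 gap was 0.65 and 0.73 on day 4, 0.70 to 0.76 on the hairpin arrays and 0.54 and 0.60 in shControl, so it set the shControl arrays below all others. The same gap for Gapdh was 0.26 and 0.20 on day 4, 0.18 to 0.27 on the hairpin arrays and 0.17 and 0.26 in shControl, where the groups overlapped. Their part in the results below was not tested. The stem cell label fitted the markers on the undifferentiated arrays, where the mean log2 level of 8 pluripotency markers was 10.62 to 10.87, against 8.96 and 7.95 on day 4 replicate 1 and replicate 2.

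On day 4, 7 of the 47 genes rose against shControl and 0 fell, with 40 not passing the test. The 7 were Pcdh8, Cdh2, Cdh10, Pcdh18, Cdh1, Pcdh1 and Cdh11, that is 2 of 5 type I cadherins, 2 of 8 type II cadherins, 1 of 2 delta1 and 2 of 3 delta2 protocadherins. Called were genes with a limma adjusted p under 0.05 over all 12393 genes. Among all genes 16.4% were called, 7.67% higher and 8.73% lower. The members called, 14.9%, were thus near the overall share, and all of them lay on the higher side. However, 25 of the 47 were below the lower quartile on all 8 arrays, against 15.6% of all genes, and a fall from there is hard to read. The part of this in the lack of lower calls was not tested. The median log2 difference was 0.10 over the members and -0.00058 over all genes. At an unadjusted p under 0.05 there were 8 members (17%), against 29.2% of all genes. The arrays of both groups did not overlap for 16 members that were higher (34.0%) and 3 that were lower (6.38%), against 24.1% and 26.3% of all genes.

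**Figure D1:**
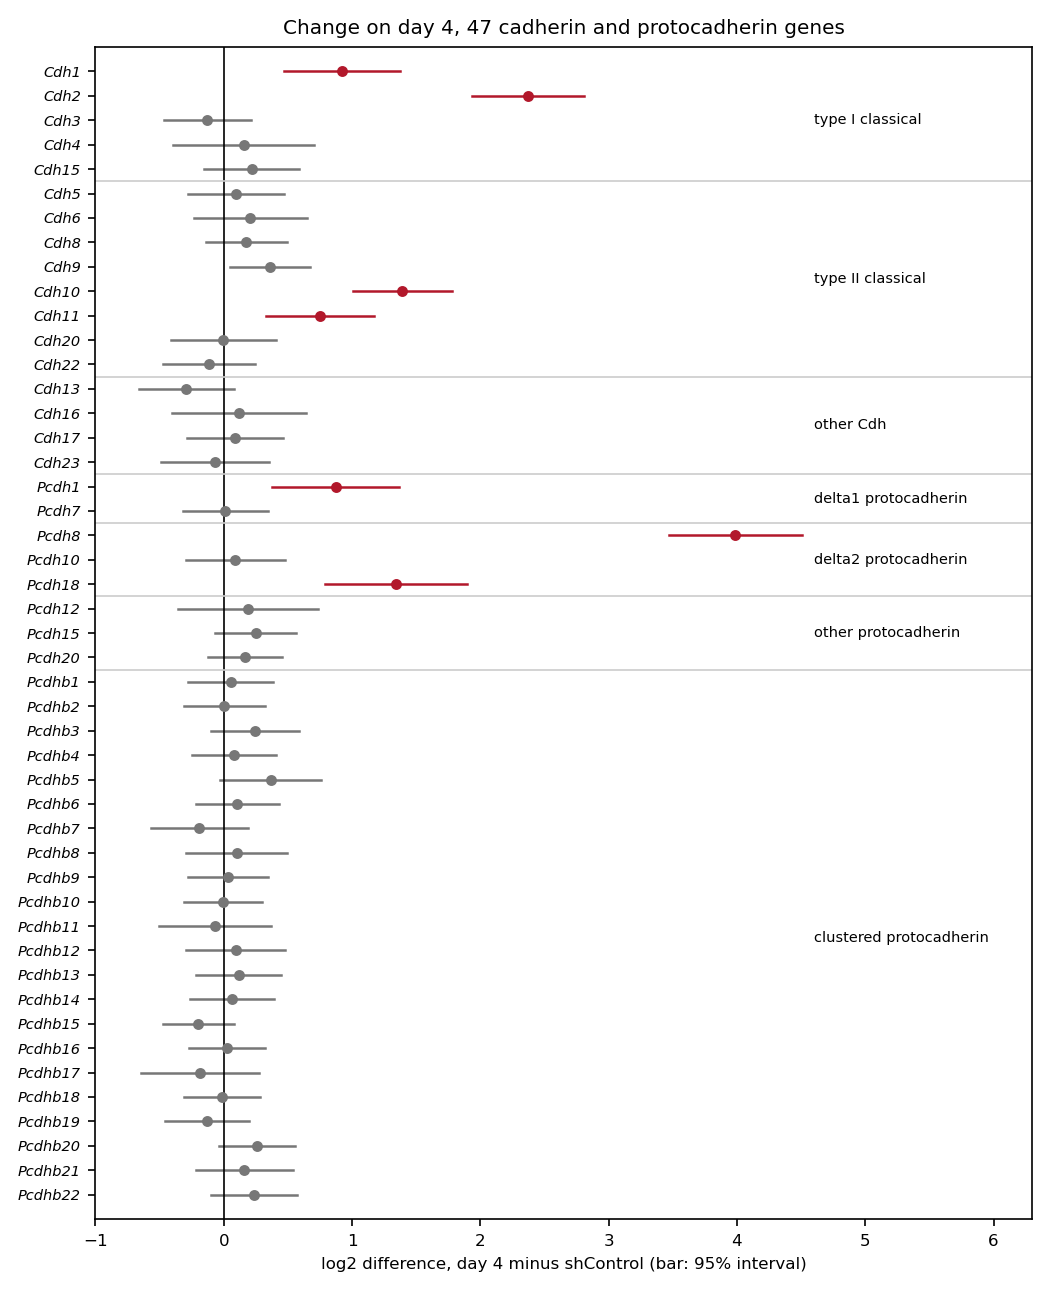
Log2 difference between day 4 and shControl (x axis) for each of the 47 genes, grouped by class from top to bottom. Points are the differences, bars the 95% intervals of the limma fit, and red marks the 7 genes with an adjusted p under 0.05. All red points lie to the right of 0, and the clustered protocadherins lie between -0.20 and 0.37.

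Set against the mean of the 3 undifferentiated groups in place of shControl alone, the same 7 genes were called and 0 fell, where 22.8% of all genes were called, 10.7% higher and 12.1% lower. At an unadjusted p under 0.05 there were 9 members (19.1%), against 33.4% of all genes, and day 4 lay above all 6 other arrays in 9 members (19.1%) and below them in 0, against 15% and 17.1%. This comparison shares the day 4 arrays and the shControl arrays with the first. Without shControl replicate 2, 3 of the 7 were called against shControl (Pcdh8, Cdh2 and Cdh10) and all 7 against the 3 groups.

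Pcdh8, a delta2 protocadherin whose frog relative acts in the movements of the mesoderm at gastrulation, had 6.75 and 6.73 on day 4, 2.85 and 2.92 with shRNA1, 3.23 and 2.49 with shRNA2, and 2.90 and 2.60 in shControl. The 6 undifferentiated arrays lay below the lower quartile of their array and both day 4 arrays far above it. The log2 difference of 2 day 4 against 2 shControl arrays was 3.99 ± 0.23 (limma adjusted p = 1.23e-05). Here and below, ± gives the SE, whose spread was estimated from all 8 arrays and not only from the groups compared. Since the shControl level is in the range where background is not known, no fold is given. The difference was 3.83 and 4.14 without shControl replicate 2 and replicate 1.

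Pcdh18, another delta2 protocadherin, had 4.27 and 5.15 on day 4, 3.45 and 3.34 with shRNA1, 3.39 and 3.27 with shRNA2, and 3.35 and 3.39 in shControl. Day 4 did not overlap the other arrays, and its replicate 2 was the higher. The difference against shControl was 1.34 ± 0.24 (limma adjusted p = 0.00585), from a shControl mean below the lower quartile. It was 0.91 without day 4 replicate 2 and 1.36 without shControl replicate 2, where it was not called (adjusted p = 0.0578). Its other probe sets gave 1.24 ± 0.50 and 0.12 ± 0.17, neither called, and averaging all 3 gave 0.90 (adjusted p = 0.0641). The first of these read 2.99 and 5.03 on the day 4 arrays, so it was high on replicate 2 alone. Pcdh10, the third delta2 gene measured, had 3.86 and 4.29 on day 4 and 3.92 and 4.05 in shControl, a difference of 0.09 ± 0.17 that was not called.

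Cdh10, a type II cadherin known from the brain, had 4.78 and 4.99 on day 4, 3.47 and 3.36 with shRNA1, 3.43 and 3.002 with shRNA2, and 3.42 and 3.57 in shControl. Only the day 4 arrays reached above the lower quartile. The difference against shControl was 1.39 ± 0.17 (limma adjusted p = 0.000733) and stood between 1.29 and 1.49 when any one array was left out. Its neighbour on chromosome 15, Cdh9, is a type II cadherin as well. It had 3.90 and 3.86 on day 4, 3.74 and 3.50 with shRNA1, 3.69 and 3.74 with shRNA2, and 3.47 and 3.56 in shControl. Day 4 did not overlap the other arrays. The difference of Cdh9 was 0.36 ± 0.14 against shControl (limma adjusted p = 0.112) and 0.26 ± 0.11 against the 3 undifferentiated groups, neither called. The difference between the changes of Cdh10 and Cdh9 was not tested.

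RefSeq's promoter windows, 250 bases before and 50 after a transcript start, were at hand for 14 of the 47 members, among them 3 of the 7 that rose, Pcdh8, Pcdh18 and Cdh10. These are shown because they are members that rose together, and Cdh9 is shown as the neighbour of Cdh10. They lie in assembly GRCm38.p6 at chr14:79771263-79771562 (Pcdh8, minus strand), chr3:49757267-49757566 (Pcdh18, minus strand), chr15:18820079-18820378 (Cdh10, plus strand) and chr15:16728665-16728964 (Cdh9, plus strand). Each runs 5′ to 3′ on its gene's strand, and capitals mark matches to 4 motifs searched on both strands. These were the GC box, GGGCGG, the CCAAT box, written as it is named, the TATA box, spelled TATAAA, and an E-box that Snail and Zeb repressors bind in the Cdh1 promoter, spelled CAGGTG. In these 4 windows no match overlapped another.
Pcdh8: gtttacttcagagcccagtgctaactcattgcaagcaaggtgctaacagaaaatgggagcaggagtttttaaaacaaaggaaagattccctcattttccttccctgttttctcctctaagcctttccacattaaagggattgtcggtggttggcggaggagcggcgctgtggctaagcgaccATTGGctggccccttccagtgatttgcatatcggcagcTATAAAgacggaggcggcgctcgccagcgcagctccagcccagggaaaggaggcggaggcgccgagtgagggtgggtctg
Pcdh18: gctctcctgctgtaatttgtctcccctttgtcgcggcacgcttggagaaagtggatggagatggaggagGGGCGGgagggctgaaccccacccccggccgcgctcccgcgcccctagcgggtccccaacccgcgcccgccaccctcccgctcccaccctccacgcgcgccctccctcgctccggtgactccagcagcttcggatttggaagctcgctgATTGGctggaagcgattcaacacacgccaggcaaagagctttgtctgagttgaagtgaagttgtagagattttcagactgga
Cdh10: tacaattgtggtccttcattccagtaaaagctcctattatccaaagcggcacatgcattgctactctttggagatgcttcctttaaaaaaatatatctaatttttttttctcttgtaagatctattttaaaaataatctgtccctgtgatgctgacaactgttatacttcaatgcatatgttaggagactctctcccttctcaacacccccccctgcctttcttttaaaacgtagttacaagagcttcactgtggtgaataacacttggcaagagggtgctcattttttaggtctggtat
Cdh9: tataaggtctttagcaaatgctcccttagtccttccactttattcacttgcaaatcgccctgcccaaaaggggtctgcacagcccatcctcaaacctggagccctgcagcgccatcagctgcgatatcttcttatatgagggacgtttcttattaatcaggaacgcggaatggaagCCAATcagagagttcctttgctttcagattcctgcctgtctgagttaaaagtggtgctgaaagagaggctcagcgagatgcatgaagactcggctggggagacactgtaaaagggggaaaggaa

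The Pcdh8 window held TATAAA 30 bases before the start, and CCAAT on the opposite strand 68 bases before it. The Pcdh18 window held GGGCGG at 181 bases and CCAAT on the opposite strand at 32 bases before the start. Cdh9 held CCAAT 74 bases before the start, and the Cdh10 window held none of the 4. Over all 32851 windows, CCAAT was in 37.4%, GGGCGG in 35.7%, CAGGTG in 20.2% and TATAAA in 13.6%. Over the 14 member windows, CCAAT was in 9, GGGCGG in 6, CAGGTG in 2 and TATAAA in 2. The members also differed in CpG, the step of a C followed by a G that the CXXC domain reads. Pcdh18 held 23 CpG, Pcdh8 held 14, Cdh9 held 8 and Cdh10 held 2, where 78.5%, 63.7%, 51.4% and 14.1% of all windows held fewer. The 14 windows ran from 2 (Cdh10) to 38 (Cdh22), with a median of 9.5 against 7 over all windows. Of the 7 genes that rose on day 4, the 3 with a window came from the low, middle and upper part of that range. The others had no window, and a link between CpG and the changes was not tested.

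Cdh2, N-cadherin, had 7.61 and 7.78 on day 4, 5.30 and 4.85 with shRNA1, 5.28 and 5.08 with shRNA2, and 5.49 and 5.16 in shControl. All 8 arrays were above the lower quartile, and day 4 stood well clear of the other 6. The difference against shControl was 2.37 ± 0.19, a 5.17-fold rise (95% interval 1.94 to 2.80 on the log2 scale; limma adjusted p = 6.98e-05). Its other probe set gave 1.81 ± 0.20 (adjusted p = 0.000536 over all probe sets), with 6.63 and 6.97 on day 4 against 4.81 and 5.16 in shControl.

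Cdh1, E-cadherin, had 11.10 and 11.20 on day 4, 10.69 and 10.75 with shRNA1, 10.42 and 10.57 with shRNA2, and 10.55 and 9.91 in shControl. Both day 4 arrays were above all others, and shControl replicate 2 was the lowest of the 8. The difference against shControl was 0.92 ± 0.20, a 1.89-fold rise (limma adjusted p = 0.0140). Without shControl replicate 2 it was 0.60 and not called (adjusted p = 0.0515), and without shControl replicate 1 it was 1.24. Against the 3 undifferentiated groups it was 0.67 ± 0.16, or 1.59-fold (adjusted p = 0.0173), and 0.62 without day 4 replicate 2 (adjusted p = 0.0666). So the group means of E-cadherin and N-cadherin RNA were both higher on day 4 than in shControl, but the 2 calls were not equally firm. In a limma fit of day 4 and shControl alone Cdh1 was not called (adjusted p = 0.0547). Nor was it with a minimum change of 1.5-fold (limma adjusted p = 0.748), whereas Cdh2 was called in both. N-cadherin had the larger log2 difference, and the difference between the changes of Cdh1 and Cdh2 was not tested.

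Cdh3, P-cadherin, is the direct neighbour of Cdh1 on chromosome 8 and also a type I cadherin. It had 5.66 and 5.91 on day 4, 5.91 and 5.84 with shRNA1, 6.21 and 6.29 with shRNA2, and 6.05 and 5.78 in shControl. Day 4 overlapped shControl, with a difference of -0.13 ± 0.15 (95% interval -0.47 to 0.21), and the difference between the changes of Cdh1 and Cdh3 was not tested. Cdh4, R-cadherin, had 5.42 and 4.88 on day 4, 5.27 and 4.93 with shRNA1, 5.06 and 4.59 with shRNA2, and 5.19 and 4.79 in shControl, with a difference of 0.16 ± 0.24 (interval -0.39 to 0.71). Cdh15, M-cadherin of muscle, changed by 0.22 on the log2 scale without a call.

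**Figure D2:**
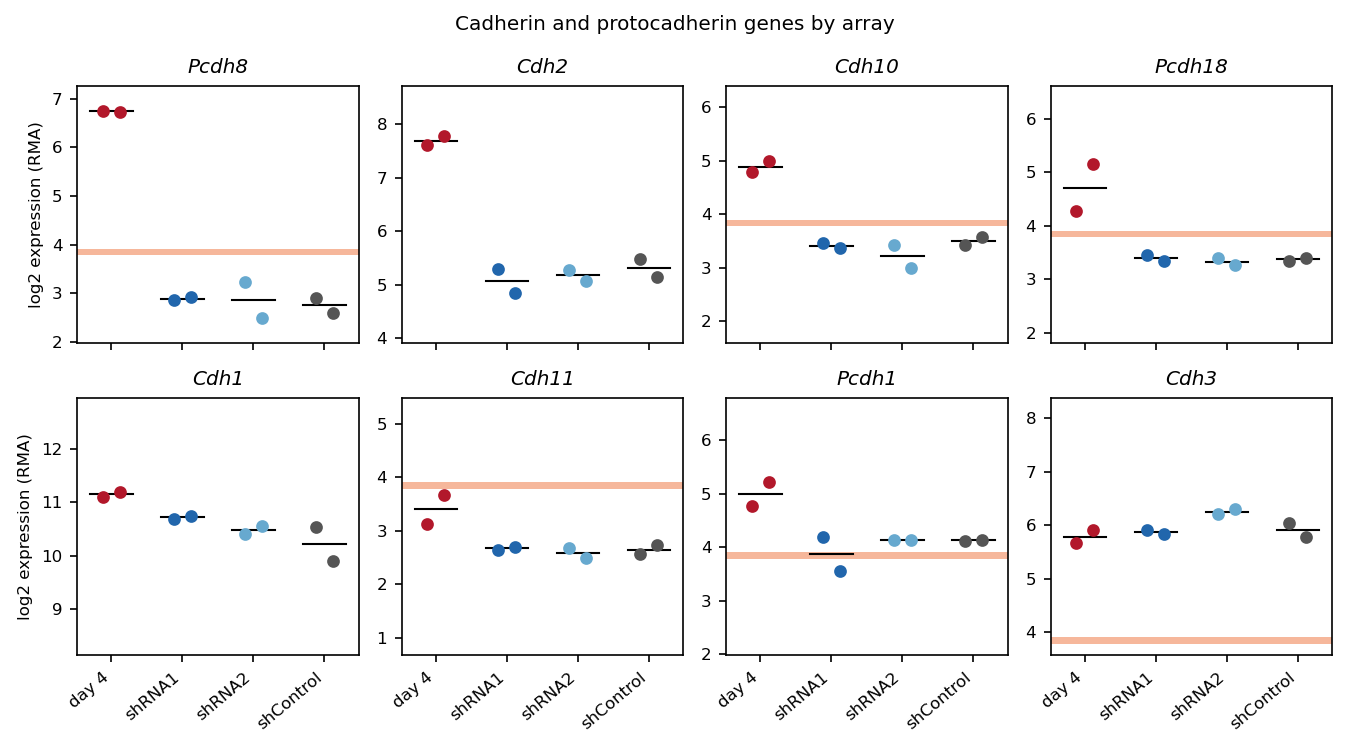
Log2 expression on each array (points) for the 7 genes that rose on day 4 and for Cdh3, by group from day 4 at the left to shControl at the right. Black lines are group means, the orange band is the range of the arrays' lower quartiles (3.79 to 3.90), and each panel has its own scale. Day 4 stands above all other arrays in the 7 genes and overlaps shControl in Cdh3.

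Pcdh1, a delta1 protocadherin, had 4.78 and 5.22 on day 4, 4.18 and 3.56 with shRNA1, 4.12 and 4.14 with shRNA2, and 4.12 and 4.13 in shControl. The shControl and shRNA2 arrays lay close together, while shRNA1 replicate 2 was the lowest of the 8. The difference of day 4 against shControl was 0.87 ± 0.22 (limma adjusted p = 0.0264), lost without day 4 replicate 2 (0.65, adjusted p = 0.0832) and without shControl replicate 1 or replicate 2 (adjusted p = 0.0987 and 0.135). Against the 3 groups it was 0.95 ± 0.18 (adjusted p = 0.00479). The other delta1 gene measured, Pcdh7, had a difference of 0.014 against shControl.

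Cdh11, a type II cadherin of mesenchyme, had 3.13 and 3.67 on day 4, 2.65 and 2.70 with shRNA1, 2.67 and 2.50 with shRNA2, and 2.57 and 2.73 in shControl. All 8 values were below the lower quartile of their array, which leaves its size uncertain. The difference against shControl was 0.75 ± 0.19 (limma adjusted p = 0.0250), and 0.48 without day 4 replicate 2, where it was not called (adjusted p = 0.0679). It was not called without shControl replicate 1 or replicate 2 either (0.67 and 0.83, adjusted p = 0.106 and 0.0873). Cdh11 lies between Cdh8 and Cdh5 on chromosome 8. Cdh8 had a difference of 0.18 ± 0.14, and Cdh5, the cadherin of endothelium, had 4.51 and 4.57 on day 4, 4.36 and 4.28 with shRNA1, 4.47 and 4.39 with shRNA2, and 4.22 and 4.68 in shControl. Its day 4 arrays lay between those of shControl (0.094 ± 0.17), and neither gene was called.

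Of the 47 genes, the 2 day 4 arrays differed most in Pcdh18, by 0.87 on the log2 scale, where 95.7% of all genes differed less. Of the others that rose, Cdh11 differed by 0.55, Pcdh1 by 0.45, Cdh10 by 0.21, Cdh2 by 0.18, Cdh1 by 0.11 and Pcdh8 by -0.021. Replicate 2 was thus the higher in 6 of the 7. Replicate 2 was also the array with the lower mean of the pluripotency markers (7.95, against 8.96 on replicate 1), and the part of this in the difference was not tested.

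**Figure D3:**
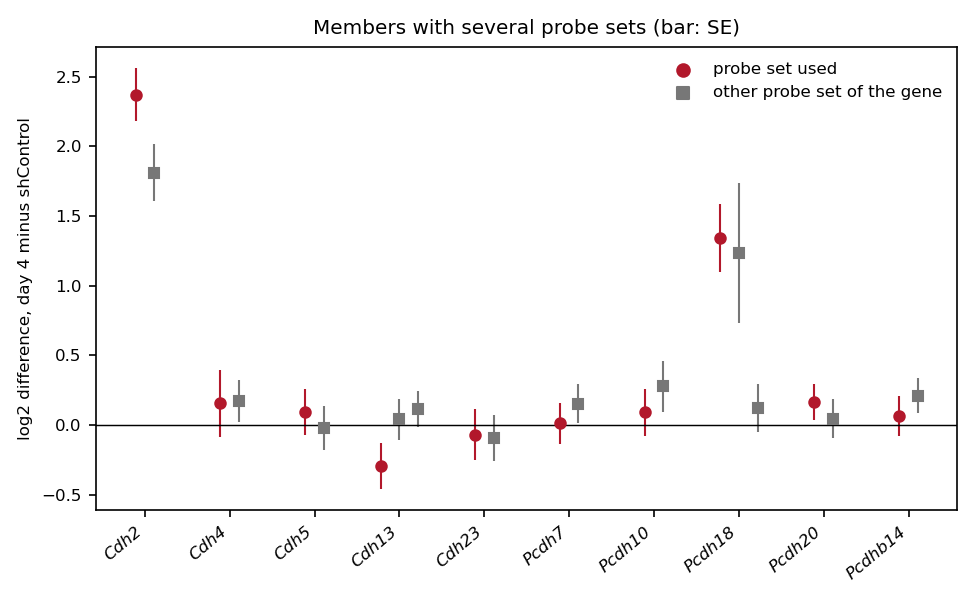
Log2 difference between day 4 and shControl (y axis) for every probe set of the 10 genes with more than 1. Red circles are the probe sets used, grey squares the others, and bars the SE. The probe sets of Cdh2 lie at 2.37 and 1.81, while those of Pcdh18 lie at 1.34, 1.24 and 0.12.

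Of the 22 clustered protocadherins, all beta genes, 0 were called on day 4 by limma, and 0 had an unadjusted p under 0.05, against 16.4% and 29.2% of all genes. Without shControl replicate 1, Pcdhb5 was called as higher. Array values of these genes ran from 2.17 to 4.64, and 19 of the 22 were below the lower quartile on all 8 arrays. The differences ran from -0.20 to 0.37 with a median of 0.059. The genes are close copies of each other and their probes may cross-read. Of the remaining genes, Cdh13, a cadherin held in the membrane by a lipid anchor, had 4.61 and 4.65 on day 4 and 4.93 and 4.91 in shControl. Day 4 was lower without overlap (-0.29 ± 0.16), a difference that was not called (adjusted p = 0.286). Its other probe sets gave 0.12 and 0.041. Cdh16, Cdh17 and Cdh23 lay between -0.07 and 0.12, and Pcdh12, Pcdh15 and Pcdh20 between 0.17 and 0.25.

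Genes that work with cadherins were followed in lists, whose counts stand against 7.67% of all genes called higher and 8.73% called lower in this comparison. Of 16 epithelial genes, 12 rose on day 4 against shControl and 0 fell, with a median difference of 1.29. The claudins Cldn7 and Cldn6, which seal tight junctions, rose by 3.98 ± 0.29 and 3.05 ± 0.19, and the keratins Krt18 and Krt8 by 3.53 ± 0.24 and 2.83 ± 0.27 (limma adjusted p at most 0.000175). Of 11 genes of E-cadherin repressors and epithelial-mesenchymal transition measured, 1 rose and 1 fell. Zeb1, a repressor of Cdh1, fell to 4.85 on day 4, against 6.88 in shControl (-2.03 ± 0.31, adjusted p = 0.00252), and Twist1 rose by 0.96 ± 0.19 (adjusted p = 0.00862), from a shControl mean of 3.57. Snai1 had -0.024 ± 0.16 and Snai2 -0.13 ± 0.15, both chosen after their values were seen.

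Of 19 catenins and junction linkers measured, 5 rose and 4 fell. The delta-catenin gene Ctnnd2 rose by 1.37 ± 0.17, the LIM protein gene Ajuba by 1.24 ± 0.17 and vinculin (Vcl), an actin linker, by 0.92 ± 0.16, while Ctnnal1, an alpha-catenin relative, had -1.04 ± 0.20 (limma adjusted p at most 0.00822). Of the tail's core partners, named after their values were seen, beta-catenin (Ctnnb1) had -0.0046 ± 0.12 and alpha-catenin (Ctnna1) -0.16 ± 0.18, while plakoglobin (Jup), a relative of beta-catenin, was called lower at -0.81 ± 0.19 (adjusted p = 0.0222). Of 12 mesenchymal genes, 2 rose, Tgfb2 by 1.80 ± 0.45 and the protease gene Mmp2 by 1.01 ± 0.28, and 3 fell, among them vimentin (Vim, -1.57 ± 0.15) and fibronectin (Fn1, -1.31 ± 0.31). The median of this list was 0.044, and 7 of its genes were not called.

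Of 13 further genes of the cadherin superfamily, from desmosomal to Fat and Celsr cadherins, 1 rose, the desmocollin gene Dsc2, by 1.67 ± 0.32 from a shControl mean of 3.40. Of 12 genes of cadherin shedding and turnover, 0 were called by limma, and 3 had an unadjusted p under 0.05. Of 13 regulators of the clustered protocadherins, 2 rose and 3 fell. The DNA methyltransferase gene Dnmt3b rose by 1.88 ± 0.24 and the cohesin gene Stag2 by 1.59 ± 0.16, whereas Rest, a repressor of neuronal genes, had -1.18 ± 0.16 and the H3K9 methyltransferase gene Ehmt2 -0.71 ± 0.21. The beta genes themselves were not called.

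**Figure D4:**
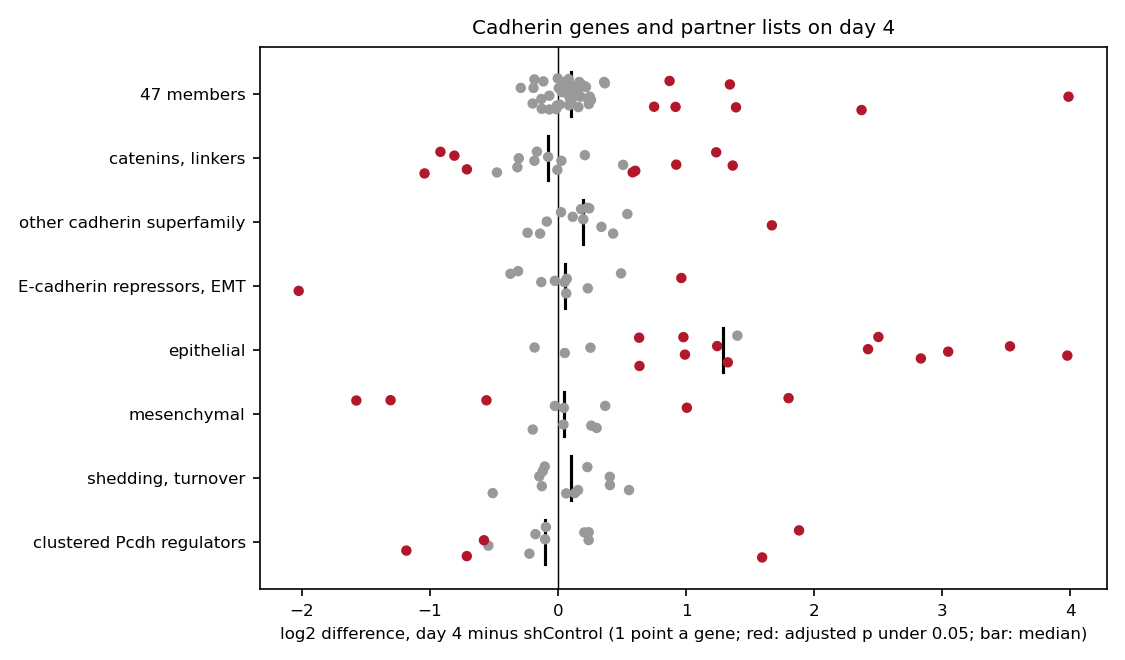
Log2 difference between day 4 and shControl (x axis) for the 47 members and for each list of partner genes, 1 point a gene. Red points have an adjusted p under 0.05 and black bars are medians. The epithelial list has 12 red points, all above 0, and a median of 1.29, against 0.10 for the members.

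Markers of other cell types were followed beside these changes. Of 7 primitive streak and mesoderm markers, 1 rose (Eomes, by 2.70 ± 0.43) and 1 fell (Kdr, -0.89 ± 0.25), and their mean level was 5.13 and 5.34 on day 4, against 4.97 and 4.79 in shControl. Of 8 endoderm and 8 fibroblast markers, 0 were called by limma, and 1 and 2 had an unadjusted p under 0.05. Of 8 neural markers, Zic1 rose and Tubb3 and Neurod1 fell. Of 7 trophoblast markers, Krt8, Krt7 and Cdx2 rose and Tfap2c fell, with a mean of 5.87 and 5.68 on day 4, 5.45 and 5.58 with shRNA1, 5.49 and 5.70 with shRNA2, and 5.22 and 5.07 in shControl. The hairpin arrays were thus also above shControl in this list, and 1 of them reached the day 4 range. Of 6 endothelial markers, which include Cdh5, 1 fell (Pecam1). Of 8 pluripotency markers, 6 fell, among them Klf4 (-4.55 ± 0.37), Esrrb (-3.71 ± 0.63), Tfcp2l1 (-3.43 ± 0.57) and Zfp42 (-2.84 ± 0.45). The part of any of these in the cadherin changes was not tested.

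With the Fbxl19 hairpins, 0 of the 47 genes were called by limma in any of the 4 comparisons. For the mean of both hairpins against shControl 0.0726% of all genes were called, for shRNA1 0.242%, for shRNA2 0% and for shRNA2 against shRNA1 0.105%, so 0 in 47 stands near these shares. At an unadjusted p under 0.05 there were 3 members (6.38%) in the mean of both hairpins, against 8.42% of all genes. There were 3 members with shRNA1 (6.38%, against 9.82%), 1 with shRNA2 (2.13%, against 5.1%) and 1 between the hairpins (2.13%, against 5.15%). The differences of the 47 genes ran from -0.36 to 0.38 in the mean of both hairpins, with a median of 0.045 against -0.0042 over all genes. The comparisons with shControl share its 2 arrays. In the mean of both hairpins the 7 trophoblast markers had a median difference of 0.47, with 0 called by limma and 2 at an unadjusted p under 0.05, and their mean level was 5.45 to 5.70 on the hairpin arrays, against 5.22 and 5.07 in shControl. The part of this in the cadherin values was not tested.

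**Figure D5:**
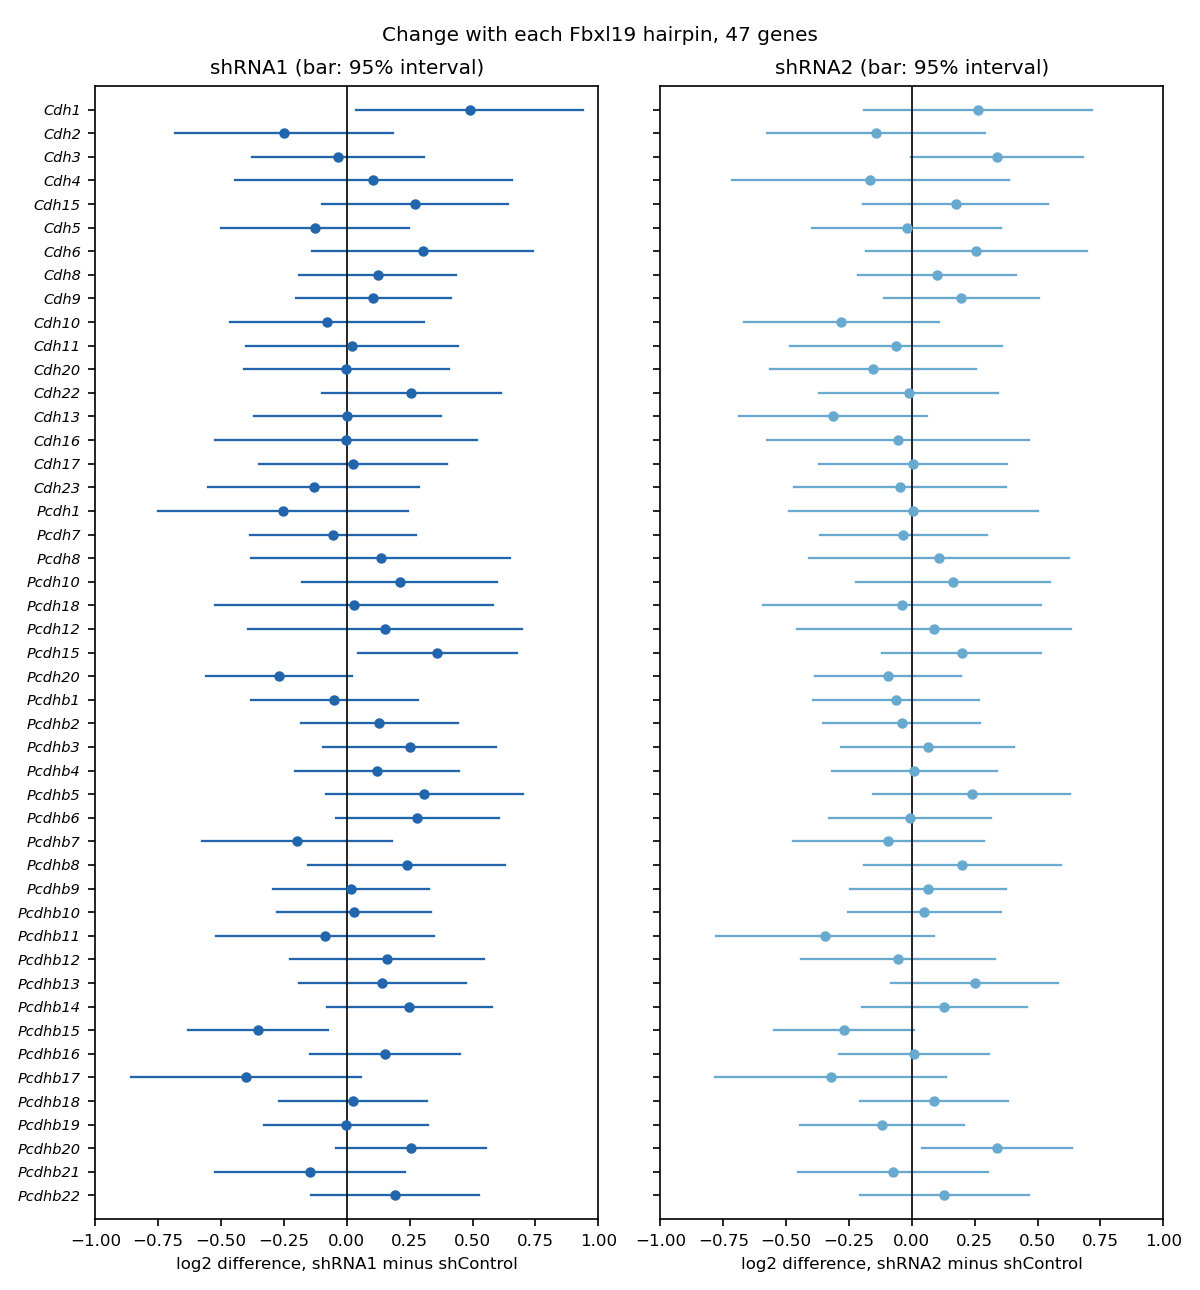
Log2 difference from shControl for each of the 47 genes with shRNA1 (left) and shRNA2 (right), with bars for the 95% intervals of the limma fit. Differences lie between -0.40 and 0.49 with shRNA1 and between -0.35 and 0.34 with shRNA2. None was called, and both panels share the shControl arrays.

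Of the 7 genes that rose on day 4, Cdh1 had the smallest p with the hairpins. All 4 hairpin arrays (10.42 to 10.75) were above shControl replicate 2 (9.91), and shControl replicate 1 (10.55) lay among them. The difference was 0.38 ± 0.17 in the mean of both hairpins (95% interval -0.016 to 0.77; limma adjusted p = 0.61), 0.49 ± 0.20 with shRNA1 and 0.26 ± 0.20 with shRNA2. Without shControl replicate 2 the mean of both hairpins was 0.055, and without shControl replicate 1 it was 0.70. Cdh2 had -0.20 ± 0.17 in the mean of both hairpins (interval -0.57 to 0.18). Its other probe set read 4.71 and 4.22 with shRNA1 and 4.51 and 4.42 with shRNA2, all below 4.81 and 5.16 in shControl, and gave -0.52 ± 0.18 (adjusted p = 0.455 over all probe sets). Pcdh8 had 0.12 ± 0.20, Pcdh18 -0.0050 ± 0.21, Cdh10 -0.18 ± 0.15, Cdh11 -0.022 ± 0.16 and Pcdh1 -0.12 ± 0.19 in the mean of both hairpins. The intervals of these 5 reached at most 0.57 upward and -0.55 downward.

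The smallest p in the mean of both hairpins was that of Pcdhb15, a clustered protocadherin, with 2.75 and 2.69 with shRNA1, 2.84 and 2.76 with shRNA2, and 3.07 and 3.08 in shControl. The hairpin arrays lay below shControl without overlap (-0.31 ± 0.11, limma adjusted p = 0.483). Pcdhb20 had 2.76 and 2.93 with shRNA1, 2.95 and 2.91 with shRNA2, and 2.52 and 2.66 in shControl (0.30 ± 0.11, adjusted p = 0.543). Pcdh15, a protocadherin of the hair cells of the inner ear, had 4.19 and 4.14 with shRNA1, 4.15 and 3.85 with shRNA2, and 3.80 and 3.81 in shControl (0.28 ± 0.12, adjusted p = 0.589). Pcdhb17 had 2.44 and 2.17 with shRNA1, 2.38 with shRNA2 on both arrays, and 2.39 and 3.02 in shControl (-0.36 ± 0.18, adjusted p = 0.624), and shControl replicate 2 alone stood apart. In all 3 beta genes every value was below the lower quartile of its array. For the mean of both hairpins, members did not overlap shControl in 3 cases higher and 3 lower, where 9.53% and 10.6% of all genes did so.

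Between the hairpins, Cdh3 had the smallest p. Both shRNA2 arrays (6.21 and 6.29) were above both shRNA1 arrays (5.91 and 5.84), a difference of 0.37 ± 0.15 (95% interval 0.033 to 0.71; limma adjusted p = 0.903), and also above shControl (6.05 and 5.78). Pcdhb6 had 3.01 and 3.20 with shRNA2 and 3.42 and 3.37 with shRNA1 (-0.29 ± 0.14). Cdh13 had 4.50 and 4.71 with shRNA2 and 5.13 and 4.71 with shRNA1 (-0.32 ± 0.16). Cdh13's arrays met at 2 decimals. The members whose arrays did not overlap were 7 with shRNA2 higher and 10 with shRNA2 lower (14.9% and 21.3%), which 21.9% of all genes showed with shRNA2 higher and 21.7% with shRNA2 lower. The cadherin partner lists held 0 called genes in the mean of both hairpins as well, among 19 catenins and linkers, 16 epithelial genes and 11 E-cadherin repressors and transition factors, whose median differences were -0.022, 0.095 and 0.012. In these lists 2, 1 and 1 genes had an unadjusted p under 0.05.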

How the data were processed

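RNA of 8 samples was measured on Affymetrix Mouse 430A 2.0 arrays per the design text, although the labels name a Cy3 label. The log2 values, 1 per probe set, were deposited by the authors after RMA, per the submitters' processing notes. Which RMA version was run, and if on all 8 arrays at once, is not stated per the labels. The table held 22690 probe sets. Array controls (64) were left out, and 20380 probe sets with 1 symbol in the platform annotation gave 12393 genes.

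A mean per group was fitted by limma (lmFit, then eBayes, version 3.58.1, under R version 4.3.3) with 4 residual degrees of freedom, with Benjamini-Hochberg adjustment over all genes and calls under 0.05. SE and 95% intervals are the moderated ones. The fit was tested on simulated data. Described by array were members called in any comparison, Cdh1 to Cdh5 where measured, and the members with the smallest p in the mean of both hairpins (5) and between them (3). In the partner lists, up to 4 called genes with the largest change were named. Members and lists were chosen with earlier results of these data known. Alternatives covered probe sets, dim genes, variance model, arrays in the fit, array weights, scaling, a minimum change, a replicate block and leaving out each array. Precision is limited by the number of arrays.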

Additional observations from a re-analysis of the deposited data

Results flagged for a closer look

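On day 4 against the 3 undifferentiated groups, 22.8% of all genes were called with 1 probe set a gene. The 6 probe sets shared by several clustered protocadherin genes, which no comparison above uses, were fitted among all probe sets instead. Of these 6, 1 was called in that comparison. It read 3.58 and 3.52 on day 4, 2.95 and 2.63 with shRNA1, 3.03 and 2.74 with shRNA2, and 2.77 and 3.21 in shControl, so that day 4 was above all others while every value was below the lower quartile of its array. The difference against the 3 undifferentiated groups was 0.66 ± 0.15 (limma adjusted p = 0.0172 over all probe sets), and against shControl 0.56 ± 0.19 (adjusted p = 0.0925). The other 5 had differences of 0.027 to 0.31 against the 3 groups, none called. Groups of 2 arrays are too small for a test of outlying arrays.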

How the results depend on the processing

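The 7 genes called on day 4 against shControl, and the 7 against the 3 undifferentiated groups, were 7 and 7 after repeated quantile normalization and 7 and 8 after centring of the arrays, all higher, and these scalings moved the median of all genes by at most 0.063. With the dimmest 30% of genes left out, 2 and 2 were called (Cdh1 and Cdh2), since the other 5 were no longer tested. With a minimum change of 1.5-fold, 3 and 4 were called (Pcdh8, Cdh2 and Cdh10, joined by Pcdh18 against the 3 groups). Leaving out 1 array gave 3 to 7 against shControl, the 3 without shControl replicate 2 (Pcdh8, Cdh2 and Cdh10), and 6 to 8 against the 3 groups. Among these, 6 were called against shControl without shControl replicate 1, being 5 of the 7 and Pcdhb5, while Pcdhb21 joined the 7 against the 3 groups without day 4 replicate 1, as Pcdh20 did after centring. A fit restricted to day 4 and shControl called 5 (Cdh1 and Cdh11 lost, adjusted p = 0.0547 and 0.0908), as with array weights (Cdh11 and Pcdh1 lost). Both arrays of a group received the same weight, so these weights compare groups and could not lower a single outlying array. The 4 hairpin comparisons had 0 called members under every alternative, and no named member reversed a called direction. Replicate numbers are not stated to pair arrays. The differences between replicates correlated across genes at 0.504 between the hairpins, 0.261 and 0.226 with shControl, and -0.078 to 0.07 with day 4, and with a replicate block 7 and 7 genes were called. A fit of compared groups alone equals the full fit for the 3 groups and was not run.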
